A study of Mus musculus with 4 samples.

Results

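The miR-99/100 and miR-125/miR-351 families were followed in the plasma of aged and young mice. Their 6 mature miRNAs, miR-99a-5p (MIMAT0000131), miR-99b-5p (MIMAT0000132), miR-100-5p (MIMAT0000655), miR-125a-5p (MIMAT0000135), miR-125b-5p (MIMAT0000136) and miR-351-5p (MIMAT0000609), were taken by identifier among 1265 probes, with earlier results of these arrays known. The aged group was 2 male C57BL6/J mice of 23 to 24 months and the young group 2 male C57BL6/J mice of 6 to 7 weeks, with no treatment or engineered allele in either. Cell-free RNA, the RNA left in plasma once cells are spun out, was labelled with the dye Hy5 and hybridized in 1 colour to 3D-Gene chips for mouse miRNAs, with a chip for each mouse. Blood was drawn by cardiac puncture in both groups. The question was which circulating miRNAs differ with age.

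A miRNA is a short RNA that guides a silencing complex to messenger RNAs, mainly through its seed, which is bases 2 to 8 counted from the 5′ end. The miR-99/100 miRNAs are known to restrain mTOR signalling, a pathway of cell growth. The miR-125 miRNAs are the vertebrate relatives of lin-4 of the worm. They target Lin28, whose protein blocks let-7 maturation, and they are active in blood stem cells. In mammals, genes of both families sit beside let-7 genes, so that a miR-99/100 gene, a let-7 gene and a miR-125 gene can lie on 1 transcript. The rodent miR-351 has the miR-125 seed but lies elsewhere, beside miR-322 and miR-503.

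The mature sequences are shown because the families are defined by their seeds, and because near-identical members may bind each other's probes. They come from the RefSeq annotation of GRCm38.p6, in which all 6 were found by name. The seed is in capitals.
miR-99a-5p: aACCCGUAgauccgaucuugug
miR-99b-5p: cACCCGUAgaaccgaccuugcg
miR-100-5p: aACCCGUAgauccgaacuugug
miR-125a-5p: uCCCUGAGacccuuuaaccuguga
miR-125b-5p: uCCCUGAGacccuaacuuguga
miR-351-5p: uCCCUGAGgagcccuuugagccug

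The first seed occurred in 3 of 1679 mature miRNA names of that annotation, all of them members. The second occurred in 5, the 3 members and also miR-6367 and miR-6394. The pair miR-99a-5p and miR-100-5p differ by the single substitution U16A, with positions counted from the 5′ end of miR-99a-5p. From miR-99a-5p to miR-99b-5p there are 4 substitutions, A1C, U11A, U16C and U21C. The miR-125a-5p and miR-125b-5p sequences share their first 13 bases and are 3 edits apart. By contrast, miR-351-5p shares only the first 8 bases with either of them and is 7 edits from miR-125a-5p and 10 from miR-125b-5p. The cross-hybridization between such probes was not measured, so miR-99a-5p and miR-100-5p may not be separate measurements, and the same holds for miR-125a-5p and miR-125b-5p.

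The genes form 4 groups in GRCm38.p6. Mir99b (chr17:17830188-17830257) and Mir125a (chr17:17830812-17830879) lie 554 bases apart with Mirlet7e between them, all inside the protein-coding gene Spaca6. Mir100 (chr9:41531425-41531504) and Mir125b-1 (chr9:41581926-41582002) lie 50421 bases apart inside the long noncoding RNA gene Mir100hg, with Mirlet7a-2 between them. Mir99a (chr16:77598936-77599000) and Mir125b-2 (chr16:77646273-77646343) lie 47272 bases apart around Mirlet7c-1, in no other annotated gene. The mature miR-125b-5p of Mir125b-1 and Mir125b-2 is the same sequence, so its signal is the sum of both genes. Mir351 (chrX:53053255-53053353) lies inside the long noncoding RNA gene C430049B03Rik, 630 bases from Mir503 and 901 from Mir322.

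The deposited values are linear signal intensities scaled by the authors to a common median of 25 over whatever values an array lists. The aged arrays list 563 and 578 probes and the young arrays 620 and 439, and 362 probes, all 6 members among them, have a value on every array. These lists differ in length, and the median of these 362 shared miRNAs was 62.1 and 55.95 on the aged arrays, against 67.9 and 35.15 on the young arrays. The 2 young arrays therefore differ in the level of the shared miRNAs, and whether this is technical or lies in the mice was not tested. Results are given as deposited and also with these medians set equal or with quantile normalization. Both of these alternatives assume that the difference in level is technical. Cells whose RNA the plasma could hold were represented by 11 marker miRNAs, of which 3 could be tied to a probe. All 3 were tied through the study's table of the miRNAs that differ most with age on these same arrays. That they differ between the ages was thus fixed by this choice. The myeloid miR-223-3p was at 429.9 and 499.2 in aged mice 1 and 2, against 269.1 and 141.4 in young mice 1 and 2. The muscle miR-1a-3p was at 56.8 and 159.2 in aged mice, against 525.0 and 214.8 in young mice, and the muscle miR-133a-3p at 67.8 and 142.2 in aged mice, against 362.6 and 155.9 in young mice. Their part in the results on the 6 members was not tested, and the other 8 markers were not analysed here.

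All 6 miRNAs had a lower mean log2 signal in aged than in young plasma, and none passed an adjusted p of 0.05 in limma on the deposited scale, at which 0.276% of all 362 miRNAs were lower. The differences ran from -1.19 for miR-351-5p to -0.27 for miR-99b-5p on the log2 scale, with a standard error of 0.60 each, against a median of 0.31 over all 362 miRNAs. Of all 362, 32.0% had a difference below 0. Both aged arrays lay below both young arrays for 4 of the 6, miR-99a-5p, miR-100-5p, miR-125b-5p and miR-351-5p. This held for 9.94% of all 362 miRNAs on the same scale. A lower signal in plasma can come, among other sources, from fewer cells that release a miRNA or from less of it per cell. A change in its release with age, which the study raises as a possibility, is another. These cannot be told apart here.

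**Figure D1:**
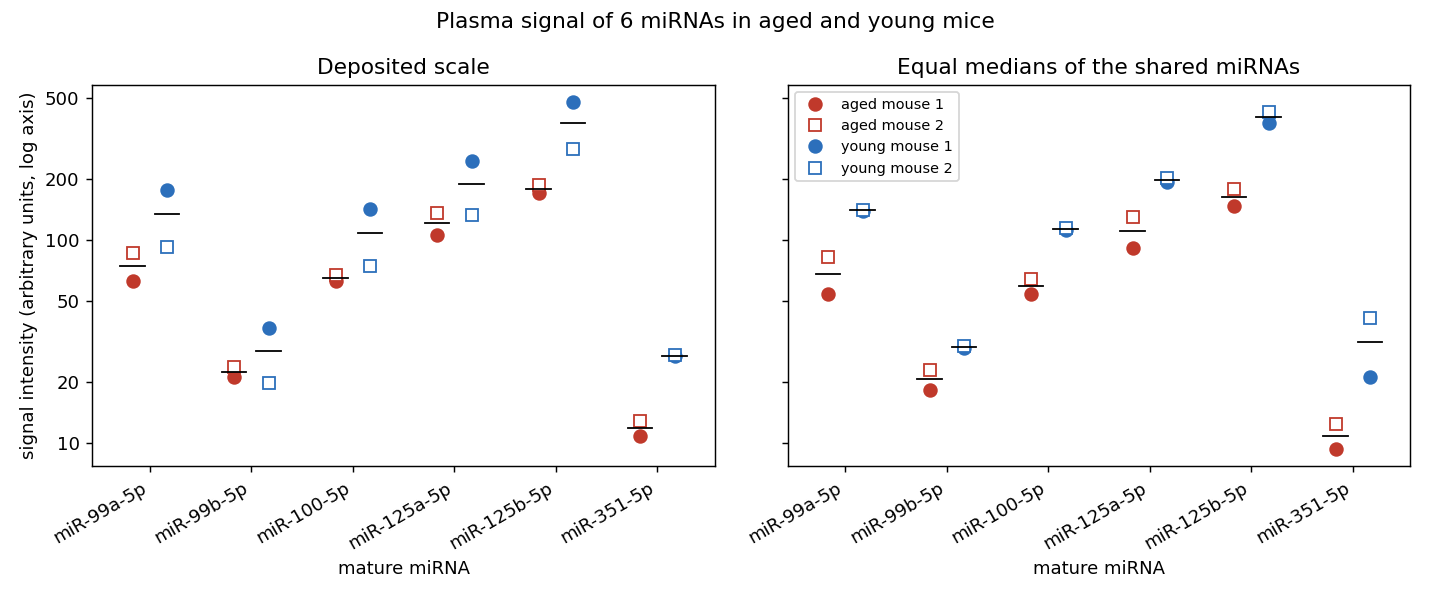
Signal intensity (log axis, arbitrary units) of the 6 miRNAs in each mouse, with aged mice left of young mice, circles for mouse 1, squares for mouse 2 and a bar at the mean of each age. The left panel shows the deposited scale, on which miR-99b-5p and miR-125a-5p overlap between the ages, and the right panel the scale with equal medians of the shared miRNAs, on which no member overlaps.

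Among the miR-99/100 miRNAs, miR-99a-5p had a signal of 62.7 and 86.2 in aged mice 1 and 2, against 175.8 and 92.7 in young mice 1 and 2. Young mouse 1 stood far above the other 3 mice, and aged mouse 2 came close to young mouse 2. The means were 74.5 ± 16.6 in aged and 134 ± 58.8 in young plasma (SD, n = 2 mice each), a ratio of 0.555. The log2 difference was -0.80 (95% interval -1.97 to 0.38, adjusted p = 0.84 from limma).

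The near-identical miR-100-5p followed the same order. It was at 63.0 and 67.2 in aged mice, against 142.1 and 74.8 in young mice. The means were 65.1 ± 2.97 in aged and 108 ± 47.6 in young plasma (SD, n = 2 mice each), and the log2 difference was -0.66 (95% interval -1.84 to 0.51, adjusted p = 0.84 from limma). The aged mice were close together, and the lower young mouse was only just above them.

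The dimmest of this family, miR-99b-5p, was at 21.2 and 23.8 in aged mice, against 37.1 and 19.7 in young mice. Here the ages overlapped, because young mouse 2 was the lowest of the 4. Its signals were 2.43 to 5.30 times the lowest listed value of their arrays. The means were 22.5 ± 1.84 in aged and 28.4 ± 12.3 in young plasma (SD, n = 2 mice each), and the log2 difference of -0.27 was the smallest of the 6 (95% interval -1.44 to 0.91, adjusted p = 0.88 from limma). Without young mouse 1 its sign turned, to 0.19.

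In the miR-125/miR-351 family, miR-125b-5p was the brightest member on every array, at 170.2 and 187.1 in aged mice, against 478.3 and 281.2 in young mice. Both aged mice were well below both young mice. The means were 179 ± 11.95 in aged and 380 ± 139 in young plasma (SD, n = 2 mice each), a ratio of 0.470. The log2 difference was -1.04 (95% interval -2.22 to 0.14, adjusted p = 0.84 from limma).

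Its relative miR-125a-5p was at 106.3 and 136.2 in aged mice, against 244.8 and 133.2 in young mice. Aged mouse 2 was just above young mouse 2, so the ages overlapped. The means were 121 ± 21.1 in aged and 189 ± 78.9 in young plasma (SD, n = 2 mice each), and the log2 difference was -0.59 (95% interval -1.76 to 0.59, adjusted p = 0.87 from limma).

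The miRNA with the miR-125 seed outside the let-7 clusters, miR-351-5p, was at 10.8 and 12.9 in aged mice, against 26.7 and 27.2 in young mice. It had the widest gap between the ages on this scale and the closest young values. The means were 11.9 ± 1.48 in aged and 26.95 ± 0.354 in young plasma (SD, n = 2 mice each), a ratio of 0.440. The log2 difference of -1.19 was the largest of the 6 (95% interval -2.37 to -0.02, unadjusted p = 0.047 and adjusted p = 0.81 from limma). An unadjusted p under 0.05 with a lower signal was found for 2.21% of all miRNAs, and miR-351-5p was the only member with one. Its aged signals were only 1.54 and 1.36 times the lowest listed value of their arrays, and with 16 added to every signal before the logarithm the difference was -0.63. The study's own table of circulating miRNAs that differ with age holds miR-125b-5p and miR-351-5p, chosen on these same arrays. The study also reports the age difference by quantitative RT-PCR and in RNA from plasma vesicles. Its results text does not list every miRNA measured in this way, but its methods name assays for miR-125b and miR-351-5p. Those measurements were not examined here.

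**Figure D2:**
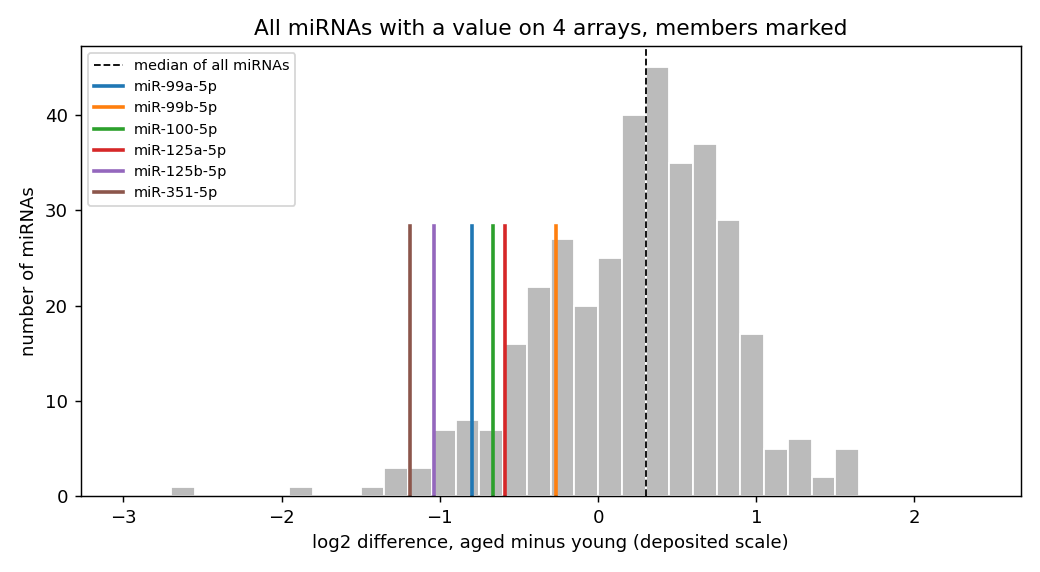
Histogram of the log2 difference, aged minus young, of the 362 shared miRNAs (deposited scale), with the median of 0.31 dashed. Coloured lines mark the 6 miRNAs, from -1.19 for miR-351-5p to -0.27 for miR-99b-5p, and the height of these lines carries no value.

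Ordered from the most lowered of the 362 miRNAs, miR-351-5p was number 7, miR-125b-5p 12, miR-99a-5p 19, miR-100-5p 28, miR-125a-5p 33 and miR-99b-5p 75. Setting the medians equal shifts every difference by the same amount and leaves this order as it is. With quantile normalization the places were 8, 11, 20, 28, 43 and 72 in the same order of names. The standard error of 0.60 belongs to the difference of each miRNA and includes differences in level between arrays, which most members share. It is therefore not the error of a step between neighbours in this order. Between the ages, ratios on the same array did not overlap for miR-99b-5p to miR-125a-5p and, only just, for miR-99a-5p to miR-125b-5p. For the other neighbours they overlapped. The permutation test of these ratios could not pass for any pair in this design, so it decides no step.

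Much of the spread between the young mice was common to most members and to the median miRNA. Whether it came from the scale of the arrays or from the mice was not tested. On the deposited scale, the log2 difference, young mouse 2 minus young mouse 1, was -0.93 to -0.77 for every member but miR-351-5p, and its median over all 362 miRNAs was -0.87. For miR-351-5p it was 0.03. With equal medians the young mice differed by 0.02 to 0.18 for the other 5 members and by 0.98 for miR-351-5p. The young values of miR-351-5p that are close on the deposited scale are apart on this one.

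With equal medians, both aged arrays were below both young arrays for all 6 members, as for 22.7% of all miRNAs. On this scale miR-99a-5p was at 54.2 and 82.7 in aged mice, against 138.9 and 141.5 in young mice. For miR-100-5p the signals were 54.4 and 64.5 in aged and 112.3 and 114.2 in young mice. The young mice now lay side by side, with a clear gap down to the aged ones.

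The same held for miR-125a-5p, at 91.9 and 130.6 in aged mice, against 193.5 and 203.3 in young mice. For miR-125b-5p the signals were 147.1 and 179.4 in aged and 378.0 and 429.3 in young mice. For miR-99b-5p they were 18.3 and 22.8 in aged and 29.3 and 30.1 in young mice, the narrowest gap of the 6. For miR-351-5p, at 9.33 and 12.4 in aged mice against 21.1 and 41.5 in young mice, the young mice stood apart from each other.

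In limma on equal medians, miR-125b-5p fell by 1.31 on the log2 scale (standard error 0.42, adjusted p = 0.048) and miR-351-5p fell by 1.46 (standard error 0.42, adjusted p = 0.029). Over all miRNAs 12 were lower at this threshold, or 3.31%, and 4 higher, or 1.1%. The other 4 members did not pass, with -1.07 for miR-99a-5p (adjusted p = 0.16), -0.93 for miR-100-5p (adjusted p = 0.24), -0.86 for miR-125a-5p (adjusted p = 0.32) and -0.54 for miR-99b-5p (adjusted p = 0.56). All 6 differences were below 0, as for 46.1% of all miRNAs. With 1 of the 4 arrays left out, the log2 differences ran from -1.45 to -1.17 for miR-125b-5p and from -1.95 to -0.97 for miR-351-5p. Such a fit holds only 1 mouse in that age and can lose a call for that reason alone. These fits therefore do not decide how far either call rests on a single array.

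With quantile normalization none of the 6 passed, while both aged arrays were again below both young arrays for all 6, as for 21.0% of all miRNAs. The differences were -1.35 for miR-351-5p (adjusted p = 0.32), -1.18 for miR-125b-5p (adjusted p = 0.31), -1.05 for miR-99a-5p (adjusted p = 0.31), -0.87 for miR-100-5p (adjusted p = 0.32), -0.67 for miR-125a-5p (adjusted p = 0.32) and -0.46 for miR-99b-5p (adjusted p = 0.44). All were below 0, as for 42.3% of the miRNAs. No miRNA passed in that fit, while 32, or 8.84%, were lower at an unadjusted p under 0.05.

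**Figure D3:**
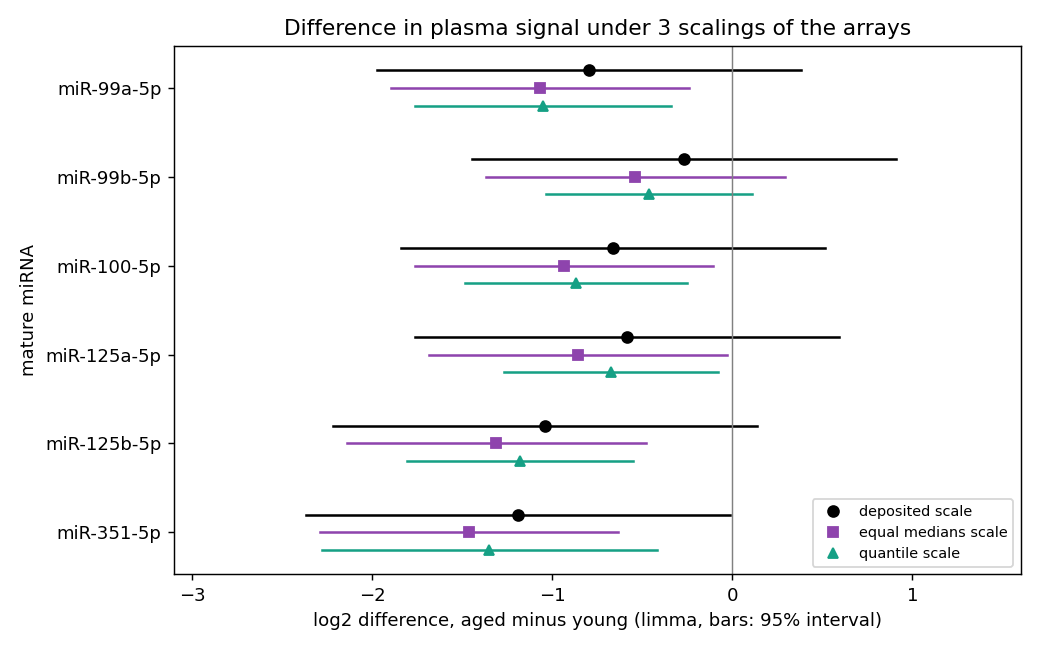
Log2 difference, aged minus young, of each miRNA under 3 scalings of the arrays, with the 95% interval from limma as a bar (n = 2 mice per age). Every point lies below 0, and the interval of miR-99b-5p reaches past 0 under every scaling.

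A rank within an array does not depend on how that array was scaled. Among the 362 shared miRNAs, with 1 the brightest, miR-125b-5p ranked 102 and 99 on the aged arrays, against 64 and 54 on the young arrays. For miR-125a-5p the ranks were 133 and 122 on the aged arrays and 97 and 99 on the young arrays. For miR-351-5p they were 346 and 342 on the aged arrays and 285 and 207 on the young arrays, so that in aged plasma it was among the dimmest shared miRNAs.

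The miR-99/100 miRNAs moved in the same direction. The ranks of miR-99a-5p were 181 and 158 on the aged arrays and 115 and 120 on the young arrays. Those of miR-100-5p were 179 and 165 on the aged arrays and 129 and 134 on the young arrays, and those of miR-99b-5p 296 and 290 on the aged arrays and 241 and 252 on the young arrays. Both aged ranks were below both young ranks for all 6 members, as for 21.0% of the 362 miRNAs.

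For all 6 members together this separation held among the shared miRNAs and not among all listed probes of an array, whose number differs between arrays. As percentiles of all listed probes, with 100 the brightest, the aged mice lay wholly below the young mice for 3 of the 6 members, as for 9.39% of the 362 miRNAs. These were miR-99a-5p at 68.03 and 72.84 in aged and 81.61 and 72.89 in young mice, miR-125b-5p at 82.06 and 83.04 in aged and 89.84 and 87.93 in young mice, and miR-351-5p at 22.91 and 20.76 in aged and 52.26 and 52.62 in young mice. For miR-99a-5p the gap was very small. The ages overlapped for miR-99b-5p at 45.83 and 48.79 in aged and 60.48 and 40.77 in young mice, for miR-100-5p at 68.38 and 71.63 in aged and 79.35 and 69.48 in young mice, and for miR-125a-5p at 76.55 and 79.07 in aged and 84.52 and 77.68 in young mice. Young mouse 2, whose array lists the fewest probes, was the lower young mouse in each of these 3. It was also the lower one for miR-99a-5p and miR-125b-5p. The mean difference in percentile, aged minus young, was -3.32 for miR-99b-5p, against -12.9 among the shared miRNAs, while for miR-351-5p it was -30.6, against -27.1 among the shared miRNAs.

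**Figure D4:**
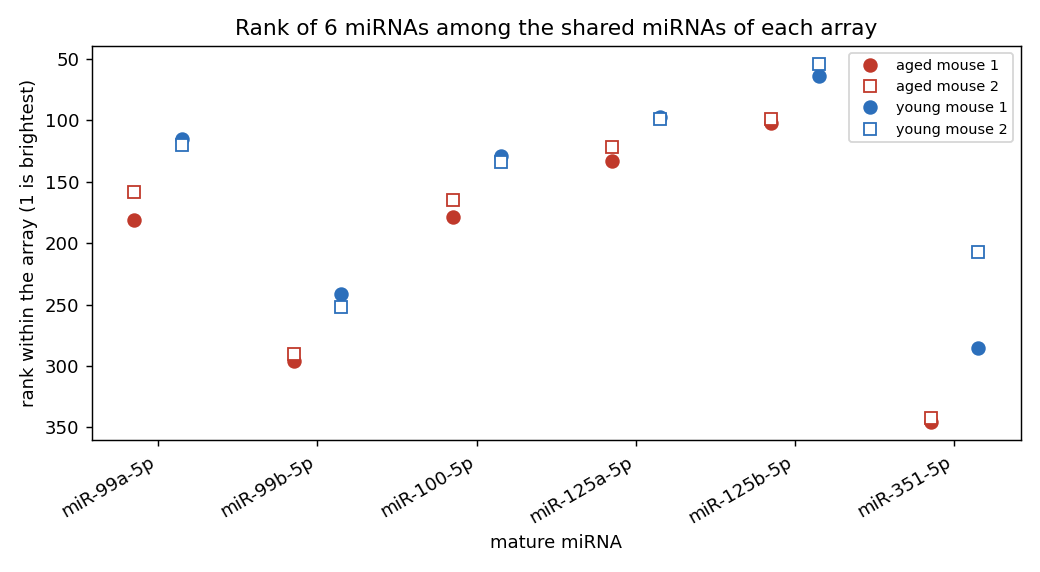
Rank of each miRNA among the 362 shared miRNAs of an array, with 1 the brightest at the top, aged mice left of young mice, circles for mouse 1 and squares for mouse 2. For each of the 6 miRNAs both aged mice are lower in rank than both young mice, and miR-351-5p has the widest spread between the young mice, at 285 and 207.

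The log2 ratio of 2 members on 1 array is also free of the array's scale, and its difference between the ages shows whether the members differed unequally. Of 15 pairs, 10 had ratios that did not overlap between the ages, which for 2 mice against 2 gives the smallest exact two-sided permutation p that this design allows, 0.333, or 0.5 after adjustment over the pairs. This test could therefore not pass for any pair, and no other test of the ratios was run. The 15 pairs share members and are not independent. The share of such pairs over all miRNAs was not computed, so the count of 10 has no background beside it.

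The widest differences involved miR-99b-5p. Its log2 ratio to miR-351-5p was 0.97 and 0.88 in aged mice, against 0.47 and -0.47 in young mice, a difference of 0.92. Its ratio to miR-125b-5p was -3.01 and -2.98 in aged and -3.69 and -3.84 in young mice, a difference of 0.77. In aged mice the miR-99b-5p signal was thus higher, relative to miR-125b-5p and miR-351-5p on the same array, than in young mice. Both miR-99b-5p and miR-351-5p were dim, at 2.43 to 5.30 and 1.36 to 3.81 times the lowest listed value of their arrays. No pseudocount was added to these ratios.

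Between the 2 close miR-125 miRNAs, the ratio of miR-125a-5p to miR-125b-5p was -0.68 and -0.46 in aged mice, against -0.97 and -1.08 in young mice, a difference of 0.45. The 1-base pair showed no such separation. The ratio of miR-99a-5p to miR-100-5p was -0.01 and 0.36 in aged and 0.31 and 0.31 in young mice, so the ages overlapped, with a difference of -0.13. The ratio of miR-100-5p to miR-125a-5p overlapped as well and had the smallest difference of the 15, at -0.08.

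Of the miRNAs encoded beside the members, let-7e-5p, from the gene between Mir99b and Mir125a, could be tied to a probe. A further 16 names listed as cluster neighbours, other arms or relatives were not analysed here, since no identifier was paired with them. The let-7e-5p signal was 17.1 and 26.0 in aged mice, against 65.3 and 27.2 in young mice, which came to -0.999 on the log2 scale (adjusted p = 0.84 from limma, standard error 0.60). The aged mice were below the young mice, although aged mouse 2 and young mouse 2 nearly met.

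Within this cluster the 3 miRNAs were therefore at -0.999 for let-7e-5p, -0.59 for miR-125a-5p and -0.27 for miR-99b-5p. The log2 ratio of miR-99b-5p to let-7e-5p was 0.31 and -0.13 in aged mice, against -0.82 and -0.47 in young mice, a difference of 0.73 (exact two-sided permutation p = 0.333). That of miR-125a-5p to let-7e-5p was 2.64 and 2.39 in aged mice, against 1.91 and 2.29 in young mice, a difference of 0.41 (exact two-sided permutation p = 0.333). In both ratios the ages did not overlap. The let-7e-5p probe is in the study's table too, as chosen on these arrays, and the study's quantitative RT-PCR was again not examined here.

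For the profile over the 4 arrays, each miRNA's log2 signals were centred on their own mean and set against the mean profile of a family, a distance that the scaling of an array does not change. Nearest to the miR-99/100 profile was miR-125a-5p of the other family, at a root mean square distance of 0.045 (log2). The probes MIMAT0000152 at 0.045 and MIMAT0014878 at 0.077 followed, and the median of the other 359 probes was 0.52. The miR-99/100 members were themselves up to 0.16 from their mean profile, so these probes lay within the range of the family's own members. The other miR-125/miR-351 members were farther from the miR-99/100 profile, miR-125b-5p at 0.24 and miR-351-5p at 0.45.

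Nearest to the miR-125/miR-351 profile were miR-199-3p at 0.13, MIMAT0003151 at 0.15 and MIMAT0016997 at 0.15, with a median of 0.68 over 359 probes. The members of that family were themselves up to 0.24 from their mean profile, so these 3 probes lay within the range of its own members. The signal of miR-199-3p was 46.0 and 46.2 in aged mice, against 123.6 and 72.8 in young mice. Likeness over 4 arrays is a description of these mice only.

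The study sets out the arrays of each age as experiments 1 and 2, and the labels do not say what mice of the same number share, so their ratios are given as values only. In experiment 1 all 6 members were lower in the aged mouse, at 0.356 times the young signal for miR-125b-5p, 0.357 for miR-99a-5p, 0.4045 for miR-351-5p, 0.434 for miR-125a-5p, 0.443 for miR-100-5p and 0.571 for miR-99b-5p. In experiment 2 the ratio was 0.474 for miR-351-5p and 0.665 for miR-125b-5p, and it lay between 0.898 and 1.21 for the other 4. With equal medians the ratio of miR-125b-5p was 0.389 in experiment 1 and 0.418 in experiment 2, and that of miR-351-5p 0.442 in experiment 1 and 0.298 in experiment 2. The other 4 lay between 0.564 and 0.759 in experiment 2 on that scale, all below 1.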

How the data were processed

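Plasma RNA of 2 aged and 2 young male mice was measured on 3D-Gene Mouse miRNA ver.19 chips. The deposited values are signal intensities, scaled by the authors to a median of 25 over the listed values of an array and blank where no value is listed. The sources used here do not name the scanner software, the background treatment, the way of scaling or the rule for listing a value. A further 8 columns of intensities carry headings that fit no label and were left out.

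The log2 intensities of the 362 miRNAs with 4 values were compared with limma 3.58.1 in R 4.3.3 (aged minus young, no block, no pseudocount), with Benjamini-Hochberg adjustment over all 362 and a threshold of 0.05. On the deposited and equal-median scales the moderated spread was the same for every miRNA. The limma fit was also run on simulated arrays, in which each probe varied independently and no array had a level of its own. That simulation therefore does not cover the differences in level between the arrays of this study. Ratios, ranks, distances and exact permutation tests used Python 3.11.15 (scipy 1.17.1, pandas 2.3.3, numpy 2.4.6), and figures matplotlib 3.10.9. The alternatives were equal medians, quantile normalization, a filter on dim probes, filled missing values, left-out arrays, a replicate block, a trended and robust spread, a pseudocount of 16 and the one-way test the methods name.

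Members and lists were chosen with earlier results of these data known. The text names the members, their cluster neighbours, other arms and relatives, and the 3 probes with the profile nearest to each family. Names other than those of the members come from the study's table of array signals, matched to 1 probe within 0.05 on each array, and the number of arrays limits the precision.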

Additional observations from a re-analysis of the deposited data

How the results depend on the processing

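Under the 8 settings that keep all 4 arrays, all 46 log2 differences of the members were below 0. Only equal medians, quantile normalization and the pseudocount can change a member's difference. The other settings repeat its deposited-scale difference by construction, so they add nothing on its sign. Of the 46, 2 passed the threshold, both with equal medians, at -1.31 for miR-125b-5p and -1.46 for miR-351-5p. The adjusted p of the others ran from 0.16 to 0.93. The filter on dim probes left 4 of the 6 members.

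Leaving out an array leaves 1 mouse in that age, which is assumed to vary like the 2 of the other age. The log2 differences then ran from -1.26 to -0.33 for miR-99a-5p, -0.72 to 0.19 for miR-99b-5p, -1.13 to -0.20 for miR-100-5p, -1.02 to -0.15 for miR-125a-5p, -1.42 to -0.66 for miR-125b-5p and -1.32 to -1.06 for miR-351-5p. The 1 value above 0 came without young mouse 1. Leaving out arrays at equal medians was chosen after seeing the data. It gave -1.37 to -0.76 for miR-99a-5p, -0.70 to -0.38 for miR-99b-5p and -1.06 to -0.81 for miR-100-5p. For miR-125a-5p it gave -1.11 to -0.60, for miR-125b-5p -1.45 to -1.17 and for miR-351-5p -1.95 to -0.97. The -1.95 came without young mouse 1.

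Over all miRNAs 1 was lower and 0 higher at the threshold, and 22 had an unadjusted p under 0.05. The count of lower miRNAs was 12 with equal medians, 2 with filled missing values, and 0 with quantile normalization, a trended and robust spread or the one-way test of the methods. It was 0 to 2 with 1 array left out. The count of higher miRNAs was 4 with equal medians, and 0 to 49 with 1 array left out, the 49 without young mouse 1. The cause of these changes was not tested.

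Across miRNAs, same-numbered arrays deviated from the means of their ages with a correlation of 0.34, and with 2 pairs it is not known whether the numbers pair the mice. With the replicate number as a block the differences are by construction the same, -1.19 for miR-351-5p and -1.04 for miR-125b-5p, and 1 miRNA was lower and 0 higher. The aged minus young difference in percentile rank was smaller over all listed probes than over the shared ones for 5 members, at -6.82, -3.32, -4.41, -3.29 and -6.33 for miR-99a-5p, miR-99b-5p, miR-100-5p, miR-125a-5p and miR-125b-5p, against -14.4, -12.9, -11.2, -8.15 and -11.5. For miR-351-5p it was -30.6 over all listed probes, against -27.1. The raw intensities were left out for want of a mapping to mice.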
